A study of Mus musculus with 3 samples.

Results

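Late hypertrophic chondrocytes that make the collagenase *Mmp13* were taken from mouse fracture callus as cells with both *Col10a1* and *Mmp13* RNA. A cell was counted as one when *Col10a1* reached at least 50 UMIs per 10000 UMIs of the cell and *Mmp13* at least 5 UMIs, where a UMI (unique molecular identifier) stands for 1 captured mRNA molecule. Only cells with 500 to 5000 genes, at most 10% mitochondrial UMIs, at most 5% hemoglobin UMIs, and no UMI of *Ptprc*, which encodes CD45, were used. The rule was met by 1445 cells, 361 at day 10 and 1084 at day 14 after fracture, of 30888 cells deposited for the whole series. They are called *Mmp13*-high *Col10a1* cells here. They were set beside the 727 *Mmp13*-low *Col10a1* cells, 246 at day 10 and 481 at day 14, which met the same *Col10a1* minimum but had fewer than 5 *Mmp13* UMIs. The rule read *Col10a1* and *Mmp13* values of the same cells, so every difference between both groups is a description without a test.

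The callus came from fractured femurs of C57BL/6 mice. In the study's methods the femurs were cut and pinned with steel under isoflurane, with buprenorphine given against pain. No other treatment is named there for these libraries. The callus was digested with collagenase, sorted as live CD45-CD31-TER119- cells, and sequenced as 1 droplet library for each of day 7, day 10, and day 14. The age and the number of the mice behind each library were not given in the sources used here, and the study's methods state only that males and females were used in similar numbers throughout. With 1 library per day there was no replicate, a difference between days could not be told apart from one between animals or libraries, and all intervals are 95% intervals that cover counting error only. Of the day 7 cells within the limits only 447 of 7017 had no *Ptprc* UMI, and 4 of those were *Mmp13*-high *Col10a1* cells, so day 7 was not described further. The *Mmp13*-high *Col10a1* cells held 6314422 UMIs at day 10 and 18224189 at day 14, with a median of 17807 and 16899 UMIs per cell. The *Mmp13*-low cells held 4544118 and 8338209 UMIs, with a median of 19456.5 and 17569 per cell. The day 10 and day 14 libraries shared 35 cell barcodes, and 3 *Mmp13*-high cells at day 10 and 8 at day 14 had a barcode that another library also held.

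In endochondral repair, chondrocytes stop dividing, enlarge, and switch from type II to type X collagen as they become hypertrophic. At the end of this course they make enzymes that open the cartilage matrix, proteins that govern mineral deposition, and signals that draw in blood vessels and osteoclasts, the cells that resorb cartilage and bone. MMP13 is the collagenase that cuts fibrillar collagens, type II above all, and RUNX2 is a transcription factor that both hypertrophic chondrocytes and osteoblasts need. AP-1, a dimer of Fos and Jun proteins, is known to act with RUNX2 at the *Mmp13* promoter.

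The promoters of 3 genes that define these cells are shown because the cells were chosen on *Mmp13* and *Col10a1*, and *Spp1* is the marker that went with *Mmp13* in the values below. Each sequence holds the 250 bases before the RefSeq start in GRCm38.p6 on the plus strand, 5′ to 3′, and capitals mark the letters ACCACA, a core that RUNX proteins bind, and TGACTCA, the AP-1 element. Both strands were searched, as ACCACA or TGTGGT and as TGACTCA or TGAGTCA.
Mmp13, chr9:7272264-7272513: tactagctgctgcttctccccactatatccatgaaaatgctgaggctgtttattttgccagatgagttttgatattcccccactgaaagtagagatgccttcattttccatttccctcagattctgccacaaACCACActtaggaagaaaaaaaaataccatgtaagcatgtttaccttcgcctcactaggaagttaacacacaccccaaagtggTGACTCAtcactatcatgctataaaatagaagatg
Spp1, chr5:104434861-104435110: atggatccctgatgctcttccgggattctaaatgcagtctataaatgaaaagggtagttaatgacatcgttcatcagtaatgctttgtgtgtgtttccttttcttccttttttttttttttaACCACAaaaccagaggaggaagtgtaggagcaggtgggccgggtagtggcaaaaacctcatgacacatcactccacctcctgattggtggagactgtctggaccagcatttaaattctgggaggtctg
Col10a1, chr10:34389731-34389980: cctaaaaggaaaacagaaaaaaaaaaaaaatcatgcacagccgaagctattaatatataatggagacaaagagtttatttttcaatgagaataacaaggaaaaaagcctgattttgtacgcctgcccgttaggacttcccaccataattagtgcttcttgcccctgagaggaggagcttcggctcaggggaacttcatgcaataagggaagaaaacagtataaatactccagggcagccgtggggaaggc
In *Mmp13* the RUNX letters lie 118 to 113 bases and the AP-1 letters 35 to 29 bases before the start, and these 2 motifs do not overlap. *Spp1* holds the RUNX letters 128 to 123 bases before the first of its 2 listed starts. The *Col10a1* window, which lies in an intron of *Nt5dc1* on the opposite strand, holds neither. Of the 27025 genes with such a window, 14.2% hold the RUNX letters and 4.43% the AP-1 letters, and a match is a description of these letters only.

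*Mmp13*-high cells made up the larger part of the *Col10a1* cells at both days. They were 59.5% (95% Clopper-Pearson interval, 55.4% to 63.4%) of 607 *Col10a1* cells at day 10 and 69.3% (66.9% to 71.5%) of 1565 at day 14. Of all 6587 and 9680 cells without *Ptprc* they were 5.48% (4.94% to 6.06%) and 11.2% (10.6% to 11.8%). These shares depend on the limit set for *Mmp13* and on depth, and at a common depth of 5000 UMIs per cell the shares among *Col10a1* cells were 53.1% and 57.5%.

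*Mmp13* counts within the *Mmp13*-high cells ran over a wide range with no gap at the limit. At day 10 they reached from 5 to 779 UMIs per cell with a median of 102, and at day 14 from 5 to 945 with a median of 42.5. The median *Mmp13*-low cell had 0 *Mmp13* UMIs at day 10 and 1 at day 14. The limit counts UMIs per cell, and per 10000 UMIs of the cell both groups overlapped in *Mmp13*. On that scale *Mmp13*-high cells began at 2.33 at day 10 and 1.49 at day 14. *Mmp13*-low cells reached up to 31.25 and 49.14. Median *Col10a1* per 10000 UMIs was 257 in *Mmp13*-high and 159 in *Mmp13*-low cells at day 10, and 172 and 186 at day 14. The order of both groups in *Col10a1*, the gene that was held at the same minimum in each, was thus not the same at both days.

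**Figure D1:**
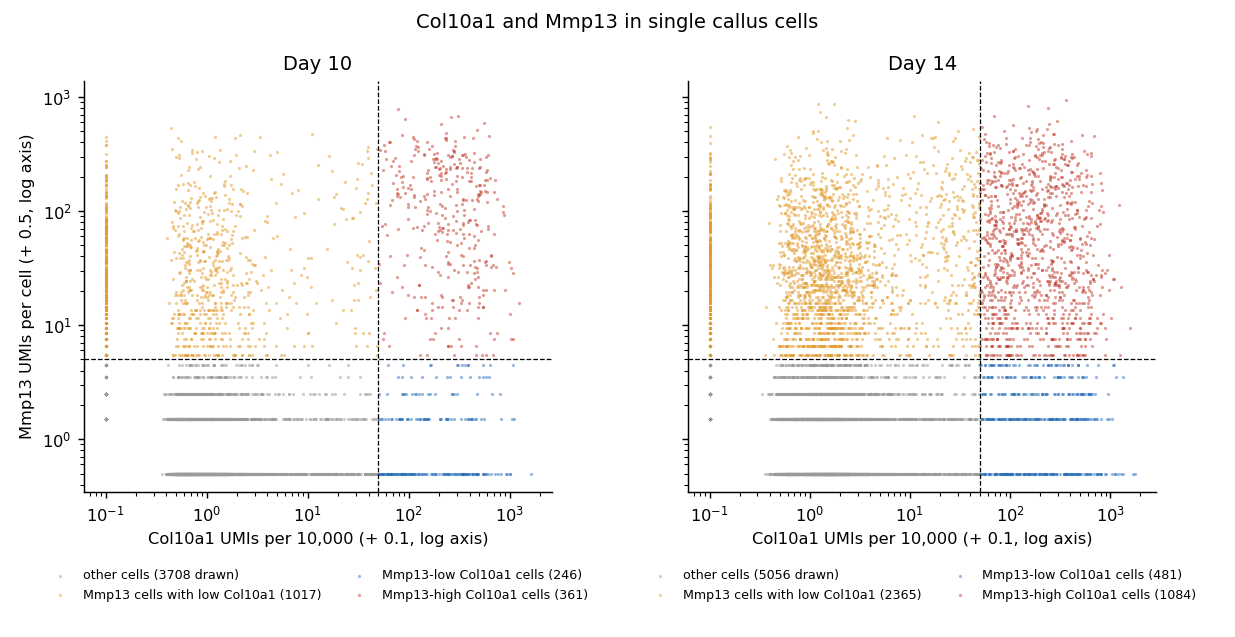
*Mmp13* UMIs per cell (vertical, log axis, 0.5 added) against *Col10a1* UMIs per 10000 UMIs of the cell (horizontal, log axis, 0.1 added), with each point 1 cell without *Ptprc* at day 10 (left) or day 14 (right) and the limits of 5 and 50 as broken lines. The 361 and 1084 *Mmp13*-high *Col10a1* cells (red) fill the upper right without a gap to the *Mmp13*-low *Col10a1* cells (blue), and of the other cells (gray) those without a UMI of either gene are not drawn.

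The cells nearest to the *Mmp13* limit were alike in some genes and apart in others. At day 10, the 26 *Col10a1* cells with 3 to 4 *Mmp13* UMIs had 12030 CPM of *Spp1* (UMIs per 1000000 UMIs, summed over the cells of a group in 1 library), and the 13 with 5 to 6 had 14129. At day 14 the 101 cells just outside had 26072 CPM of *Spp1* and the 69 just inside 19943. *Tnfsf11* was apart at day 10, with 5.09 CPM (2 UMIs) outside and 49.6 CPM (8 UMIs) inside, as was *Col1a1*, with 3034 and 9477 CPM. At day 14 *Csf1* was 8.34 CPM (12 UMIs) and 21.7 CPM (20 UMIs), while *Tnfsf11* had 9 UMIs outside and 6 inside. *Col2a1* was 36386 CPM outside and 34020 inside at day 10, and 23297 and 22048 at day 14. At the *Col10a1* limit, the 73 day 14 cells at 40 to 50 per 10000 had 6322 CPM of *Mmp13* and the 66 at 50 to 60 had 6341.

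The name given to these cells was only partly borne out by its own markers. Of *Col10a1*, *Mmp13*, *Ibsp*, and *Spp1*, the first pair was fixed by the rule. *Spp1* was higher in *Mmp13*-high than in *Mmp13*-low cells at both days and *Ibsp* was lower at both days, with values below. The cells kept chondrocyte genes, with 2558 CPM of *Acan*, the large proteoglycan of cartilage, at day 10 and 2300 at day 14, and *Sox9*, its regulator, at 403 and 342 CPM. *Ihh*, the hedgehog ligand of prehypertrophic and hypertrophic chondrocytes, was 843 and 784 CPM in them against 38.3 and 46.3 CPM in the cells with neither high *Col10a1* nor *Mmp13*. The 6 chondrocyte markers, *Acan* and *Sox9* among them, summed to 21354 CPM in *Mmp13*-high cells at day 10 and 17614 at day 14. This was below the *Mmp13*-low cells, at 61764 and 41969 CPM, and below the cells with neither, at 39776 and 24261 CPM. It was above the *Mmp13* cells with low *Col10a1*, at 11320 and 6965 CPM.

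Matrix-degrading enzymes other than *Mmp13* tended to be higher in the *Mmp13*-high cells, led by the gelatinase *Mmp9*. Among 7397 genes with at least 100 UMIs over both groups at day 10, 8.42% were at least 2-fold higher in *Mmp13*-high cells and 5.6% at least 2-fold lower. Among 9617 genes at day 14, these shares were 4.07% and 2.28%. Of the 40 matrix-breakdown genes without *Mmp13*, 21 had enough UMIs at day 10, and 10 were higher and 1 lower, with a median log2 ratio of 0.97 against 0.19 over all genes compared. At day 14, 25 had enough UMIs, and 6 were higher and none lower, with a median of 0.46 against 0.13. The 100 UMIs may come from either group alone, so these counts are a description of the genes that passed.

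*Mmp9*, which cleaves denatured collagen and is known in growth plate cartilage and in osteoclasts, was 191 CPM in *Mmp13*-high and 1.54 CPM in *Mmp13*-low cells at day 10. At day 14 it was 93.9 and 3.48 CPM. The log2 ratio was 6.96 (95% interval, 5.91 to 8.28) and 4.76 (4.23 to 5.34). Few cells carried this RNA. At a common depth of 5000 UMIs, 13.1% of *Mmp13*-high and 1.35% of *Mmp13*-low cells had an *Mmp9* UMI at day 10, and 8.87% and 0.714% at day 14. Without thinning the shares were 16.9% and 2.85% at day 10, and 14.9% and 3.95% at day 14. In cells with at least 10 *Rgs5* UMIs per 10000, a pericyte marker, which served as a reference for free RNA, the shares at the common depth were 0% of 72 cells, which allows up to 4.99%, and 4.79% of 188. Their median depth was 12521.5 and 9130.5 UMIs. At day 14 these cells with *Rgs5* held *Mmp9* more often than the *Mmp13*-low cells. Their interval, 2.21% to 8.89%, overlapped that of the *Mmp13*-high cells, 7.19% to 10.8%. They thus give no background for *Mmp9* at day 14. The 2 cells with most *Mmp9* held 46.1% of its UMIs in *Mmp13*-high cells at day 10 and 37.1% at day 14, and without the 2 highest cells of each group the log2 ratio was 6.55 and 4.77. Those cells had no UMI of the osteoclast genes *Acp5*, *Calcr*, *Dcstamp*, *Ocstamp*, *Oscar*, *Atp6v0d2*, or *Tnfrsf11a*, and the 2 at day 10 had 3 UMIs each of *Ctsk*.

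Of the other metalloproteinases, the membrane-bound *Mmp14*, which activates other MMPs, was 178 CPM in *Mmp13*-high and 49.3 CPM in *Mmp13*-low cells at day 10, and 136 and 58.6 CPM at day 14. It was higher still in *Mmp13* cells with low *Col10a1*, at 1040 and 1017 CPM. *Mmp11* was 28.3 and 6.16 CPM at day 10, and 19.2 and 5.16 CPM at day 14. *Mmp23* went the other way at day 10, with 11.7 against 27.1 CPM, and its log2 ratio at day 14 was -0.30. The genes next to *Mmp13* (chr9:7272514-7283331, plus strand, GRCm38) in its cluster, namely *Mmp12*, *Mmp1b*, *Mmp3*, *Mmp10*, *Mmp8*, *Mmp27*, *Mmp20*, and *Mmp7*, had at most 4.91 CPM in the *Mmp13*-high cells. The highest count among these neighbors was 59 UMIs, of *Mmp3* at day 14.

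Enzymes of other classes were also higher. *Htra1*, a secreted serine protease that cuts cartilage proteoglycans and fibronectin, was 687 CPM in *Mmp13*-high and 95.1 CPM in *Mmp13*-low cells at day 10, and 595 and 159 CPM at day 14. *Cemip*, which takes part in the breakdown of hyaluronan, was 93.3 and 8.58 CPM at day 10, and 48.4 and 13.1 CPM at day 14. *Adamts9*, of the family that holds the aggrecan-cutting enzymes, was 48.1 and 5.50 CPM at day 10, and 21.7 and 4.32 CPM at day 14. These 3 genes had log2 ratios of 2.85, 3.44, and 3.13 at day 10 and 1.91, 1.89, and 2.33 at day 14. The lysosomal protease *Ctsl* (1.45 and 0.89), the serine protease *Fap* (1.79 and 0.80), and the sheddase *Adam10* (1.08 and 0.74) passed 2-fold at day 10 but not at day 14. So did the hyaluronidase *Hyal2*, with 26.1 and 9.24 CPM at day 10 and 12.7 and 10.7 CPM at day 14. *Ctsk*, the collagen-degrading protease of osteoclasts, was 47.8 and 47.1 CPM at day 10, and 65.1 and 47.5 CPM at day 14.

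Inhibitors of these enzymes did not go together. *Timp3*, a matrix-bound inhibitor of metalloproteinases and aggrecanases, was 187 CPM in *Mmp13*-high and 527 CPM in *Mmp13*-low cells at day 10, and 151 and 388 CPM at day 14. *Timp2* was higher at day 10, with 435 against 196 CPM, and its log2 ratio at day 14 was 0.97. *Serpine2* had log2 ratios of 1.28 and 0.70. Of the 8 protease inhibitors compared, 2 were higher and 1 lower at day 10, and none higher and 1 lower at day 14. Among all genes compared, 8.42% were higher and 5.6% lower at day 10, and 4.07% and 2.28% at day 14.

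**Figure D2:**
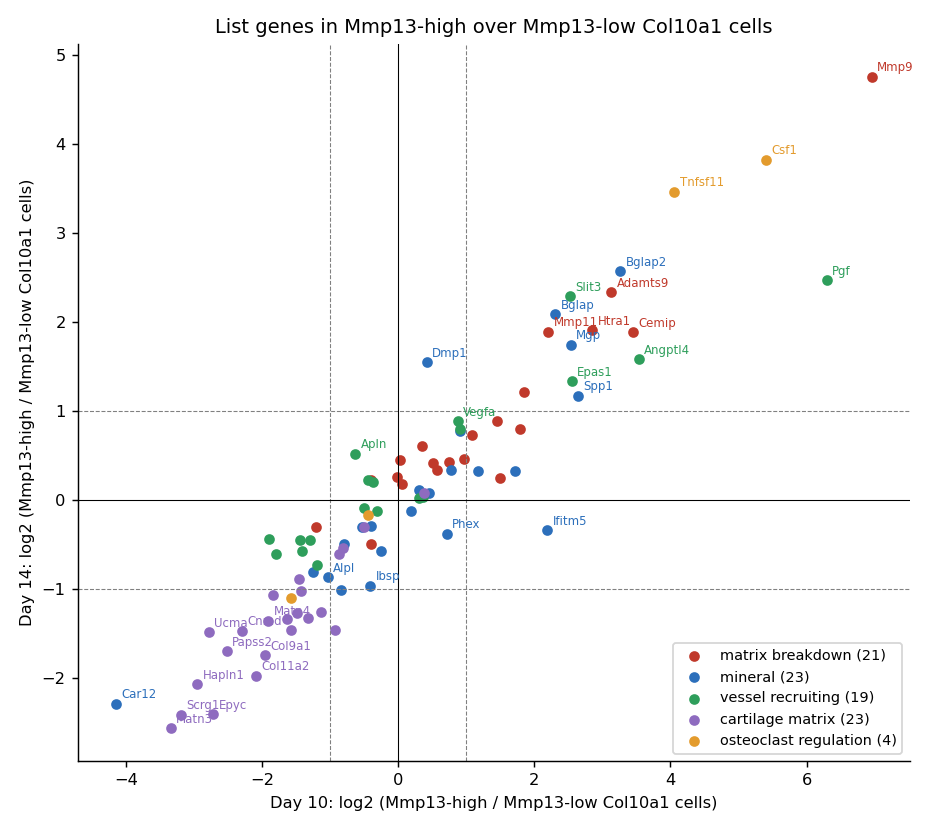
Log2 ratio of CPM in *Mmp13*-high over *Mmp13*-low *Col10a1* cells at day 10 (horizontal) and day 14 (vertical), 1 point for each gene compared at both days in 5 lists told apart by color, with broken lines at 2-fold. *Mmp9* stands at 6.96 and 4.76, *Csf1* at 5.40 and 3.82, *Spp1* at 2.65 and 1.17, and *Ibsp* at -0.41 and -0.96, and the cartilage matrix genes lie mostly at the lower left.

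Mineral genes were divided, with secreted osteopontin and matrix Gla protein higher and the main phosphatase lower. Of the 32 mineral genes, 23 had enough UMIs at day 10, and 7 were higher and 3 lower, with a median log2 ratio of 0.42. At day 14, 24 had enough UMIs, and 5 were higher and 2 lower, with a median of -0.21. The medians of all genes compared were 0.19 and 0.13. Of those genes, 8.42% were higher and 5.6% lower at day 10, and 4.07% and 2.28% at day 14.

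*Spp1* encodes osteopontin, an acidic phosphoprotein that restrains crystal growth and to which osteoclasts attach. It was 32354 CPM in *Mmp13*-high and 5172 CPM in *Mmp13*-low cells at day 10, and 36408 and 16174 CPM at day 14. The log2 ratio was 2.65 (2.63 to 2.66) and 1.17 (1.16 to 1.18). The cells overlapped widely in *Spp1*, with medians of 234 and 13.4 per 10000 UMIs at day 10 and 192 and 55.4 at day 14. Of the *Mmp13*-high cells, 93.6% at day 10 and 76.5% at day 14 lay above the median of the *Mmp13*-low cells. *Mgp*, a Gla protein that inhibits calcification, behaved alike, with 21175 and 3655 CPM at day 10 and 26686 and 7958 CPM at day 14.

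*Ibsp* encodes bone sialoprotein, which is known to nucleate mineral and lies in the same gene cluster as *Spp1* on chromosome 5. It was lower in the *Mmp13*-high cells, with 25831 against 34317 CPM at day 10 and 15581 against 30319 CPM at day 14. The log2 ratio was -0.41 (-0.42 to -0.40) and -0.96 (-0.97 to -0.95), short of 2-fold at both days. Per cell the medians were 109 and 263 per 10000 UMIs at day 10 and 41.0 and 132 at day 14, and 26.3% and 31.1% of *Mmp13*-high cells lay above the *Mmp13*-low median. *Sparc*, a collagen-binding glycoprotein, was 9056 and 16150 CPM at day 10 and 9195 and 18511 CPM at day 14. *Spp1* and *Ibsp*, which share a gene cluster and are both counted as late hypertrophic markers, thus had opposite signs at both days.

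Bone-like genes with low counts rested on a few cells. *Bglap*, which encodes osteocalcin, was 93.4 CPM in *Mmp13*-high and 18.9 CPM in *Mmp13*-low cells at day 10, and 235 and 55.4 CPM at day 14. The 2 cells with most *Bglap* held 51.0% and 57.1% of its UMIs in *Mmp13*-high cells, and without the 2 highest cells of each group the log2 ratio went from 2.30 to 1.84 at day 10 and from 2.09 to 1.17 at day 14. The cell with most *Bglap* at day 14 had 5 *Mmp13* UMIs, at the limit, and with a limit of 10 UMIs the ratio at day 14 was -0.74. *Bglap2* had log2 ratios of 3.26 and 2.57, and 2.49 and 0.14 without those cells. The 2 genes are near-identical copies whose reads may be split between them. *Dmp1*, a phosphoprotein of osteocytes and hypertrophic cartilage, was 68.9 and 51.5 CPM at day 10 and 102 and 34.9 CPM at day 14, and its log2 ratios were 0.42 and 1.55, or 3.01 and 1.88 without the 2 highest cells of each group. *Ifitm5*, an osteoblast membrane protein, passed 2-fold at day 10 (2.19) but had 0.53 without those cells and -0.34 at day 14.

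Enzymes that supply phosphate or bear on pyrophosphate were mostly not higher. *Alpl*, the alkaline phosphatase that removes the mineral inhibitor pyrophosphate, was 745 CPM in *Mmp13*-high and 1527 CPM in *Mmp13*-low cells at day 10, and 690 and 1259 CPM at day 14. *Smpd3*, a sphingomyelinase needed for skeletal mineralization, had log2 ratios of -1.25 and -0.80. *Enpp1*, which makes pyrophosphate, and *Ank*, which exports it, had ratios of 1.17 and 1.72 at day 10 and 0.33 each at day 14. The carbonic anhydrase *Car12* was 3.96 and 70.0 CPM at day 10, and 4.33 and 21.1 CPM at day 14. The regulators *Sp7* (0.45 and 0.08) and *Runx2* (0.91 and 0.77), transcription factors of osteoblasts and hypertrophic chondrocytes, stayed within 2-fold.

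Vessel-recruiting genes did not move as a family, though several ligands were higher. The list joins 22 ligands and 10 genes of oxygen sensing. Of these 32 genes, 19 had enough UMIs at day 10, and 4 were higher and 6 lower, with a median log2 ratio of -0.37. Of 12 ligands 3 were higher and 1 lower, with a median of 0.33, and of 7 oxygen genes 1 and 5, with -1.41. At day 14, 22 of the list had enough UMIs, and 5 were higher and none lower, with a median of 0.11. Of 14 ligands 4 were higher, with a median of 0.37, and of 8 oxygen genes 1, with -0.45. Over all genes compared, 8.42% were higher and 5.6% lower at day 10, and 4.07% and 2.28% at day 14. *Vegfa*, the main vascular growth factor of hypertrophic cartilage, was 438 CPM in *Mmp13*-high and 239 CPM in *Mmp13*-low cells at day 10, and 362 and 196 CPM at day 14. Its log2 ratio was 0.88 (0.77 to 0.98) and 0.89 (0.81 to 0.97), short of 2-fold at both days. *Mmp13* cells with low *Col10a1* had 88.8 and 79.4 CPM of *Vegfa*. At a common depth, 77.7% of *Mmp13*-high and 58.1% of *Mmp13*-low cells had a *Vegfa* UMI at day 10, and 69.2% and 49.3% at day 14. The reference cells with *Rgs5* had 19.4% and 14.9%, so *Vegfa* was seen in both *Col10a1* groups beyond that level.

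*Angptl4*, a secreted protein that acts on vessels and on lipoprotein lipase, was 102 CPM in *Mmp13*-high and 8.80 CPM in *Mmp13*-low cells at day 10, and 52.7 and 17.6 CPM at day 14. *Slit3*, a guidance ligand known to promote skeletal vessels, was 27.7 and 4.84 CPM at day 10, and 18.2 and 3.72 CPM at day 14. *Pgf*, a ligand of the VEGF receptor FLT1, was 17.3 and 0.220 CPM at day 10, where the *Mmp13*-low cells had 1 UMI, and the log2 ratio was 6.29 (3.79 to 11.6). At day 14 it was 6.64 and 1.20 CPM, with a ratio of 2.47. *Pgf* was seen in 43.1% and 23.4% of the cells with *Rgs5* at a common depth, so those cells give no background for it. *Cxcl12*, a chemokine, had 9.27 and 4.32 CPM at day 14.

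Most genes of the oxygen response were lower at day 10. *Epas1*, which encodes HIF2α, was higher in *Mmp13*-high cells, with 115 against 19.6 CPM at day 10 and 113 against 44.7 CPM at day 14. The prolyl hydroxylase *Egln1* (-1.79), the glucose transporter *Slc2a1* (-1.41), the glycolytic enzymes *Pgk1* (-1.45) and *Ldha* (-1.30), and the mitophagy receptor *Bnip3* (-1.89) were at least 2-fold lower at day 10. At day 14 the log2 ratios of these 5 genes lay between -0.61 and -0.44.

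Genes that restrain vessels were lower in part. *Cnmd*, which encodes the cartilage vessel inhibitor chondromodulin, was 334 CPM in *Mmp13*-high and 1646 CPM in *Mmp13*-low cells at day 10, and 290 and 800 CPM at day 14. *Thbs1*, an antiangiogenic matrix protein, was 116 and 472 CPM at day 10, and 119 and 274 CPM at day 14. Its relative *Thbs2* had log2 ratios of 0.96 and 1.02. Of the vessel-restraining genes compared, 3 of 5 were lower and none higher at day 10, and 2 of 7 were lower and 1 higher at day 14. Among all genes compared, 5.6% were lower and 8.42% higher at day 10, and 2.28% and 4.07% at day 14.

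Osteoclast-forming ligands were among the genes that differed most. *Csf1*, the survival factor of osteoclast precursors, was 130 CPM in *Mmp13*-high and 3.08 CPM in *Mmp13*-low cells at day 10, and 84.7 and 6.00 CPM at day 14. The log2 ratio was 5.40 (4.64 to 6.28) and 3.82 (3.41 to 4.26). *Tnfsf11*, which encodes RANKL, the ligand that drives osteoclast formation, was 117 and 7.04 CPM at day 10, and 74.0 and 6.72 CPM at day 14. At a common depth *Csf1* was seen in 34.2% of *Mmp13*-high and 2.25% of *Mmp13*-low cells at day 10, and 25.2% and 2.86% at day 14. *Tnfsf11* was seen in 31.0% and 3.60% at day 10, and 17.8% and 2.62% at day 14. Without thinning, 57.1% and 43.8% of *Mmp13*-high cells had a *Csf1* UMI and 46.0% and 31.8% a *Tnfsf11* UMI. In the reference cells with *Rgs5*, *Csf1* was seen in 16.7% and 9.04% and *Tnfsf11* in 1.39% and 0.532%. The cells with *Rgs5* held *Csf1* more often than the *Mmp13*-low cells and so give no background for it. For *Tnfsf11* the counting intervals of *Mmp13*-low cells and of these cells overlapped.

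*Tnfrsf11b*, which encodes the RANKL decoy receptor osteoprotegerin, was 54.6 CPM in *Mmp13*-high and 73.9 CPM in *Mmp13*-low cells at day 10, and 53.3 and 60.1 CPM at day 14. It stayed within 2-fold where its ligand did not. *Wnt5a*, a Wnt ligand that also acts on osteoclast precursors, was lower at both days, with log2 ratios of -1.57 and -1.09. Of the osteoclast-regulating genes compared, 2 of 4 were higher and 1 lower at day 10, and 3 of 5 higher and 1 lower at day 14. With so few genes these counts are a description only. Among all genes compared, 8.42% were higher and 5.6% lower at day 10, and 4.07% and 2.28% at day 14.

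**Figure D3:**
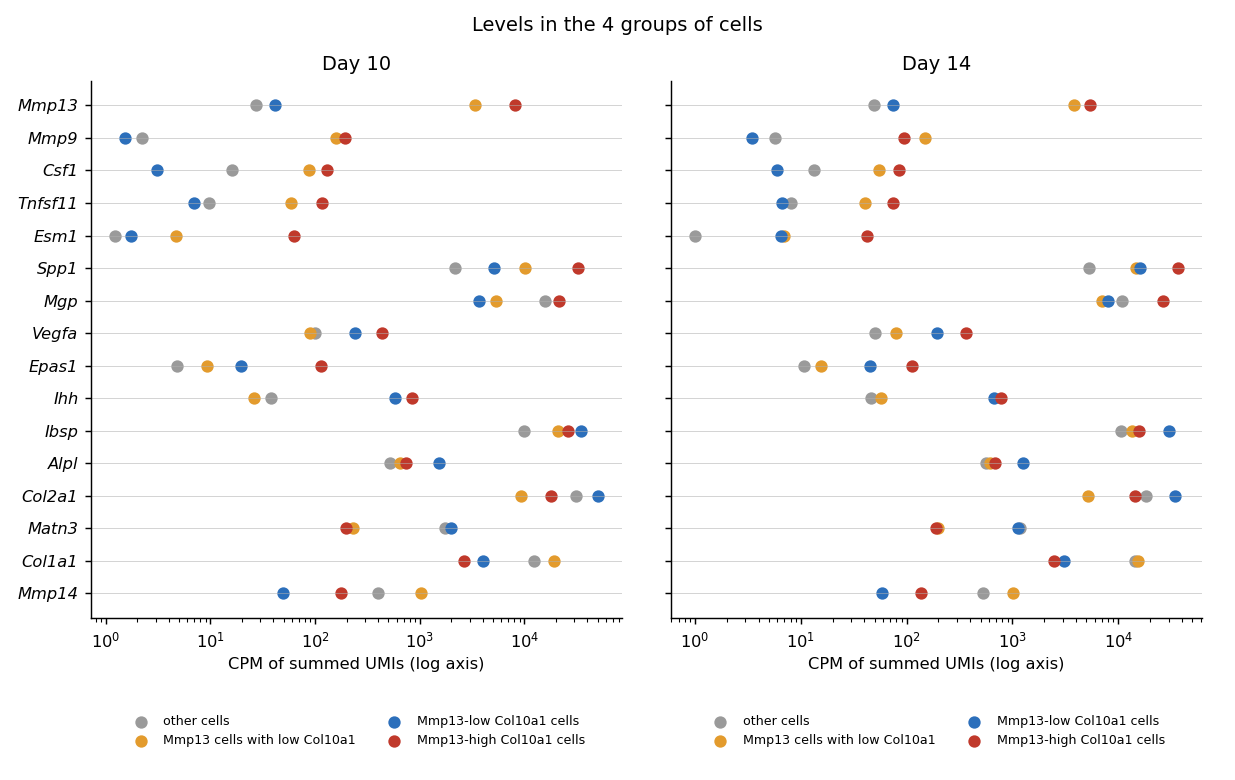
CPM of summed UMIs (horizontal, log axis) of 16 genes in 4 groups of cells without *Ptprc* at day 10 (left) and day 14 (right), 1 point for each group in color. *Csf1* is 130 and 84.7 CPM in *Mmp13*-high *Col10a1* cells, 87.9 and 54.5 CPM in *Mmp13* cells with low *Col10a1*, and 3.08 and 6.00 CPM in *Mmp13*-low *Col10a1* cells.

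Set beside *Mmp13* cells with low *Col10a1*, which numbered 1017 at day 10 and 2365 at day 14, the *Mmp13*-high *Col10a1* cells shared some of these genes and not others. *Mmp9* was 157 and 150 CPM, *Csf1* 87.9 and 54.5 CPM, and *Tnfsf11* 58.9 and 40.5 CPM in the cells with low *Col10a1*. These 3 genes were thus in reach of the *Mmp13*-high levels whether or not *Col10a1* was high. *Col1a1*, the bone and fibrous collagen, was 19110 and 15423 CPM in the cells with low *Col10a1* and 2619 and 2496 CPM in the *Mmp13*-high *Col10a1* cells. *Spp1* was 10230 and 14846 CPM in the former, below the *Mmp13*-high *Col10a1* cells at both days. *Esm1*, a secreted proteoglycan known as endocan, was 4.74 and 6.89 CPM in the cells with low *Col10a1*, against 62.9 and 42.3 CPM in *Mmp13*-high and 1.76 and 6.48 CPM in *Mmp13*-low *Col10a1* cells. *Esm1* was therefore high where both *Col10a1* and *Mmp13* were, among these 4 groups.

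The cartilage matrix was lower in *Mmp13*-high cells almost throughout its list. Of 23 genes compared, 18 were at least 2-fold lower and none higher at each day, with a median log2 ratio of -1.63 at day 10 and -1.35 at day 14. Among all genes compared, 5.6% were lower and 8.42% higher at day 10, and 2.28% and 4.07% at day 14. *Col2a1*, the type II collagen of cartilage, was 17816 CPM in *Mmp13*-high and 50165 CPM in *Mmp13*-low cells at day 10, and 14443 and 34711 CPM at day 14. *Hapln1*, the link protein that ties aggrecan to hyaluronan, was 918 and 7124 CPM at day 10, and 825 and 3459 CPM at day 14. *Matn3*, a cartilage matrilin, had log2 ratios of -3.34 and -2.56. Single cells showed the same, since only 5.54% of *Mmp13*-high cells at day 10 and 13.6% at day 14 lay above the *Col2a1* median of the *Mmp13*-low cells. *Chad*, a leucine-rich cartilage protein, was the exception, with log2 ratios of 0.38 and 0.08.

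**Figure D4:**
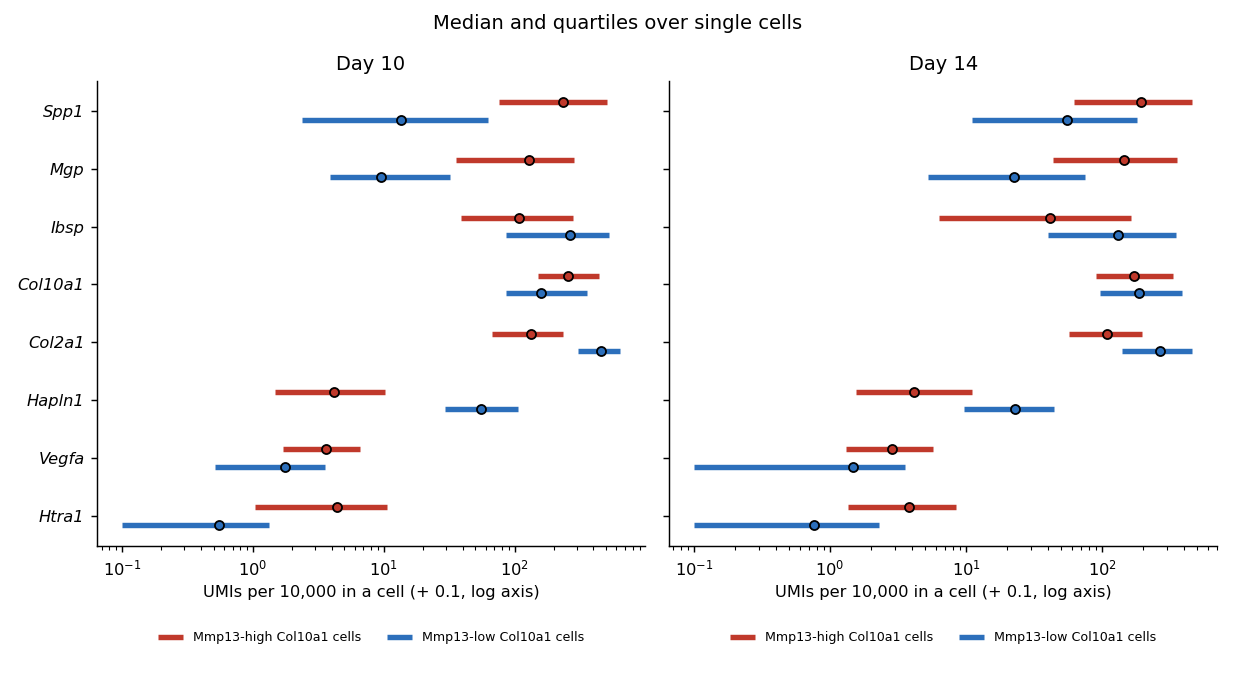
UMIs per 10000 UMIs of a cell (horizontal, log axis, 0.1 added) of 8 genes in *Mmp13*-high (red) and *Mmp13*-low (blue) *Col10a1* cells at day 10 (left) and day 14 (right), where the circle is the median over cells and the bar runs from the first to the third quartile. The *Col2a1* medians are 134 and 456 at day 10 and 109 and 268 at day 14, and the *Spp1* medians 234 and 13.4, and 192 and 55.4.

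The hypertrophic programme itself, apart from *Col10a1*, was mixed, with more genes lower than higher at 2-fold. Of 22 genes compared at day 10, 3 were higher and 6 lower, and of 23 at day 14 none was higher and 4 were lower. The shares over all genes compared were 8.42% higher and 5.6% lower at day 10, and 4.07% and 2.28% at day 14. Lower at both days were the FGF receptor *Fgfr3* (-2.38 and -1.64), the cell cycle inhibitor *Cdkn1c* (-1.72 and -1.85), and the forkhead factors *Foxa2* (-1.25 and -1.11) and *Foxa3* (-2.01 and -1.38). The homeobox genes *Dlx5* (1.36 and 0.83) and *Dlx6* (1.37 and 0.83) were at least 2-fold higher at day 10. *Pth1r*, the receptor of parathyroid hormone-related protein, was 1221 and 2367 CPM at day 10, and 1143 and 2050 CPM at day 14. *Ihh* was close in both groups, with log2 ratios of 0.55 and 0.22.

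Genes of cell stress and death stayed mostly within 2-fold. Of 17 compared at day 10, 3 were higher and 1 lower, with a median log2 ratio of -0.18. Of 19 at day 14, 2 were higher and 1 lower, with a median of 0.01. Over all genes compared the medians were 0.19 and 0.13. *Gadd45a*, which responds to DNA damage and growth arrest, was higher at both days. It was 140 CPM in *Mmp13*-high and 15.4 CPM in *Mmp13*-low cells at day 10, and 92.3 and 20.9 CPM at day 14. *Bax*, which promotes cell death at mitochondria, had log2 ratios of 1.03 and 0.72. Median mitochondrial UMIs per cell were 2.04% in *Mmp13*-high and 1.47% in *Mmp13*-low cells at day 10, and 1.48% and 1.45% at day 14, and their part in these values was not tested. Of 8 cell cycle genes, only 1 had enough UMIs at day 10 and 4 at day 14. Among those compared, *Top2a* alone passed 2-fold, at 4.94 and 1.32 CPM at day 14. It had 90 UMIs in *Mmp13*-high and 11 in *Mmp13*-low cells, so it reached the minimum count mostly through the *Mmp13*-high cells. Bone matrix genes had 4 higher and 3 lower of 14 at day 10, and 5 higher and 1 lower of 15 at day 14. Over all genes compared, 8.42% were higher and 5.6% lower at day 10, and 4.07% and 2.28% at day 14. The higher bone matrix genes included *Bglap* and *Bglap2* at both days and *Ifitm5* at day 10, whose ratios rested on a few cells as given above.

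Ordered by the number of *Mmp13* UMIs per cell, the *Col10a1* cells differed by degrees in most of these genes. The classes of 0, 1 to 4, 5 to 19, 20 to 99, and 100 or more *Mmp13* UMIs held 142, 104, 63, 117, and 181 cells at day 10 and 180, 301, 331, 433, and 320 at day 14. *Spp1* was 3254, 7658, 14174, 26308, and 40483 CPM over these classes at day 10, and 12540, 18367, 23297, 32792, and 50454 CPM at day 14. *Csf1* went from 3.12 in the lowest to 183 CPM in the highest class at day 10, and from 5.42 to 138 CPM at day 14. *Tnfsf11* went from 5.07 to 176 CPM and from 9.56 to 137 CPM.

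Not every gene followed such an order. *Vegfa* was highest in the class of 20 to 99 UMIs at both days, with 453 and 393 CPM, and 442 and 328 CPM in the highest class. *Hapln1* was lower in each successive class, from 8095 to 493 CPM at day 10 and from 3681 to 406 CPM at day 14. *Ibsp* had no single order, with 30229 CPM in the lowest and 25989 CPM in the highest class at day 10, and 32916 and 16593 CPM at day 14, where the class of 20 to 99 was lowest at 12402 CPM. *Mmp9* differed between days, with 274 CPM in the class of 5 to 19 UMIs at day 10 and 9.39 CPM in that class at day 14, where the highest class had 229 CPM. In that class at day 10, 1 cell with 12 *Mmp13* UMIs held 234 *Mmp9* UMIs. Since a deeper cell has more UMIs of each gene, the classes are not free of depth.

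**Figure D5:**
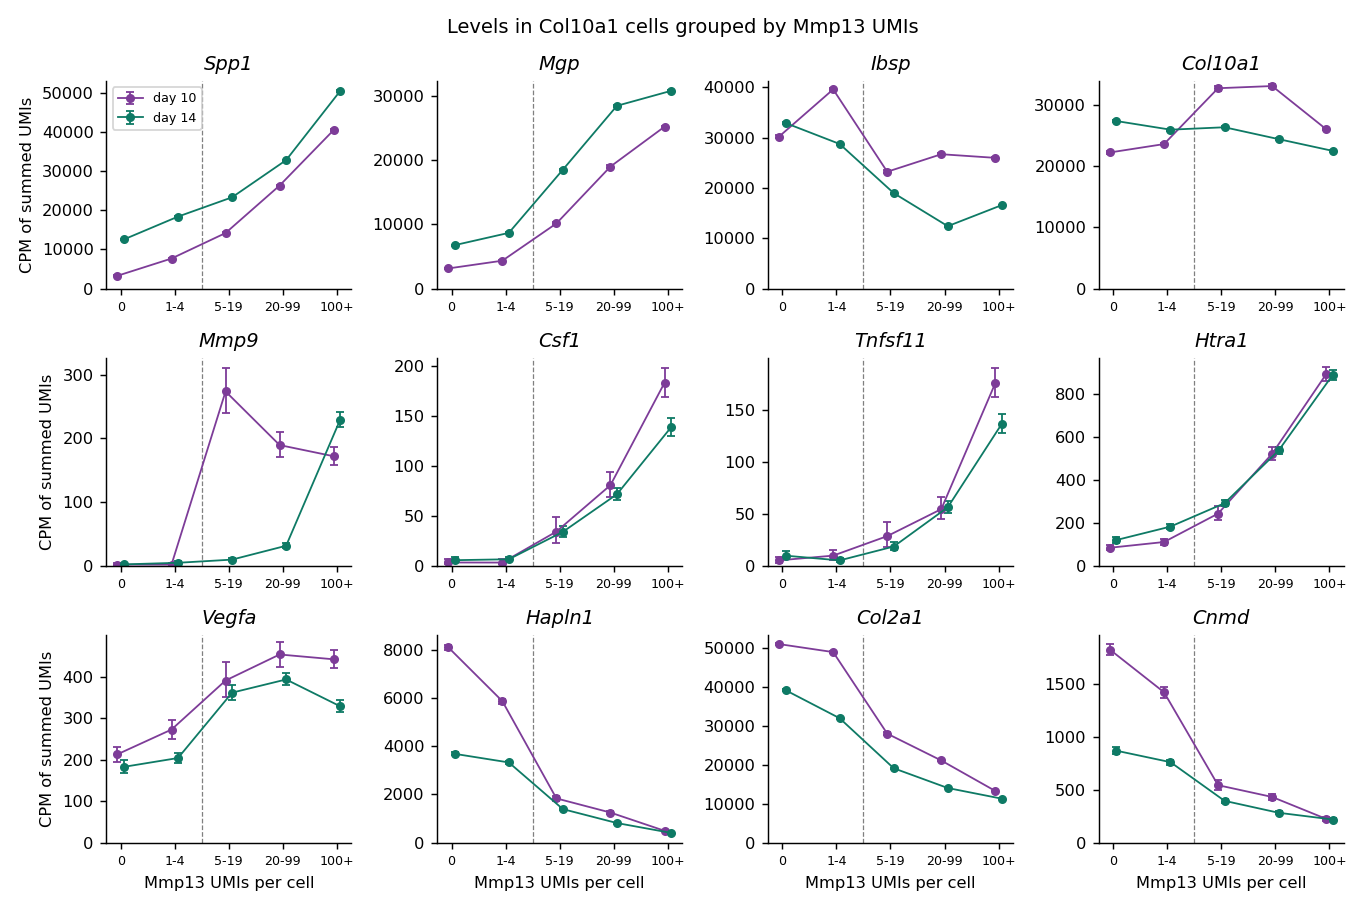
CPM of summed UMIs (vertical, linear axis from 0) of 12 genes over 5 classes of *Col10a1* cells by *Mmp13* UMIs per cell (horizontal), at day 10 (purple) and day 14 (green), with bars for 95% Poisson intervals and a broken line at the limit between *Mmp13*-low and *Mmp13*-high cells. *Spp1* goes from 3254 to 40483 CPM at day 10 and from 12540 to 50454 CPM at day 14, while *Hapln1* goes from 8095 to 493 CPM and from 3681 to 406 CPM.

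The 10 genes with the highest mean log2 ratio over both days, among those at least 2-fold higher at each, were *Mmp13*, *Mmp9*, *Csf1*, *Cd28*, *Pgf*, *Esm1*, *Sema7a*, *Tnfsf11*, *Lpl*, and *Tead2*. *Mmp13* itself was fixed by the rule that split the cells. The minimum UMI count could be reached in either group alone, so a ranking by ratio favors genes scarce in the other group. At day 10 *Cd28* had 107 UMIs in *Mmp13*-high and 3 in *Mmp13*-low cells, and *Pgf* had 109 and 1. *Sema7a*, a membrane semaphorin, was 67.0 CPM in *Mmp13*-high and 2.86 CPM in *Mmp13*-low cells at day 10, and 43.2 and 4.92 CPM at day 14. *Lpl*, the lipoprotein lipase that *Angptl4* inhibits, was 62.4 and 4.18 CPM at day 10, and 33.1 and 3.24 CPM at day 14. *Tead2*, a transcription factor of the Hippo pathway, was 38.3 and 2.20 CPM at day 10, and 26.1 and 3.12 CPM at day 14.

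*Cd28*, best known as the costimulatory receptor of T cells, was 16.9 CPM in *Mmp13*-high cells and 0.660 CPM in *Mmp13*-low cells, which had 3 UMIs, at day 10, with a log2 ratio of 4.68 (3.10 to 6.98). At day 14 it was 19.2 and 0.840 CPM, with a ratio of 4.52 (3.46 to 5.84). The T cell genes *Cd8a* and *Icos* had no UMI in *Mmp13*-high cells at either day, and *Cd3e* had 0 at day 10 and 1 at day 14. *Trac*, a T cell receptor chain, was 2.85 CPM in *Mmp13*-high and 2.20 CPM in *Mmp13*-low cells at day 10, and 4.39 and 5.52 CPM at day 14. *Ctla4*, the next such receptor gene downstream of *Cd28* on the plus strand of chromosome 1 (chr1:60716800-60773359 and chr1:60887000-60915832, GRCm38), had 57 UMIs against 1 at day 10 and 278 against 11 at day 14. At a common depth *Cd28* was seen in 5.95% of *Mmp13*-high and 0.450% of *Mmp13*-low cells at day 10, and in 6.90% and 0.238% at day 14, and in none of the reference cells with *Rgs5*.

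The 10 genes with the lowest mean ratio were *Car12*, *Matn3*, *Ppa1*, *Slc13a5*, *Nid2*, *Scrg1*, *Crispld1*, *H2-DMa*, *Ppp1r1b*, and *Smim5*. *Ppa1*, the inorganic pyrophosphatase of the cytosol, was 61.1 CPM in *Mmp13*-high and 566 CPM in *Mmp13*-low cells at day 10, and 53.8 and 334 CPM at day 14. *Slc13a5*, a citrate transporter, was 22.3 and 156 CPM at day 10, and 11.7 and 88.7 CPM at day 14. *Nid2*, a basement membrane nidogen, had log2 ratios of -3.11 and -2.57.

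Both days gave much the same directions. Of 7392 genes compared at both, 239 were at least 2-fold higher and 163 at least 2-fold lower at each day, and 0 had opposite calls. The 239 were 38.4% of the genes higher at day 10 and 61.1% of those higher at day 14, and the 163 were 39.4% and 74.4% of the genes lower at these days. The days share the rule that chose the cells, so the shared direction is no independent support.

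Markers of other cell types were partly higher in the *Mmp13*-high cells. Osteoclast markers, a list that includes *Mmp9*, summed to 246 CPM in *Mmp13*-high and 55.2 CPM in *Mmp13*-low cells at day 10, and 167 and 56.4 CPM at day 14. Most of this sum was *Mmp9*, with 1209 of 1556 UMIs in *Mmp13*-high cells at day 10 and 1712 of 3042 at day 14. Of the 9 osteoclast markers 4 and 6 were seen in *Mmp13*-high cells, and *Atp6v0d2*, *Calcr*, and *Dcstamp* were at 0 at both days. Neutrophil markers were 1.58 and 3.52 CPM at day 10 and 410 and 73.9 CPM at day 14. At day 14, 1 *Mmp13*-high cell held 1287 of 3061 UMIs of *S100a9*, a neutrophil calcium-binding protein, and at a common depth *S100a9* was seen in 10.8% of *Mmp13*-high and 8.33% of *Mmp13*-low cells. Macrophage markers were 35.8 and 15.4 CPM at day 10, and 58.5 and 33.7 CPM at day 14, with *C1qa* and *C1qb* at 0 in *Mmp13*-high cells. Markers of fibroblastic progenitors were 411 and 302 CPM, and 627 and 373 CPM.

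Other lists were level or lower. Endothelial markers summed to 5.86 and 5.06 CPM at day 10, and 5.71 and 3.60 CPM at day 14, with *Cdh5* at 0, and erythroid markers were below 1.4 CPM throughout. Osteoblast markers were 2899 and 4173 CPM, and 2984 and 3221 CPM, and pericyte markers 172 and 508 CPM, and 147 and 320 CPM. Cells with 3 or more UMIs of osteoclast, macrophage, neutrophil, or endothelial markers (without *Acp5*, *Ctsk*, and *Mmp9*) were 8.59% of *Mmp13*-high and 3.25% of *Mmp13*-low cells at day 10, and 22.0% and 16.6% at day 14. Without all such cells the counts of matrix-breakdown genes that were higher stayed at 10 and 6, those of mineral genes at 7 and 5, and those of vessel-recruiting genes at 4 and 5. Cells marked as doublets were 0.831% of *Mmp13*-high and 0.813% of *Mmp13*-low cells at day 10, and 3.69% and 0.416% at day 14. Without them the vessel-recruiting genes that were higher at day 14 numbered 4 in place of 5, and the other counts of these 3 lists were as before.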

How the data were processed

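The deposited UMI counts per gene and cell, made by the authors with Cell Ranger on mouse genome mm10, are whole numbers without normalization, and the deposited barcodes had not been cut to the limits used here. Version 3.0 is named in the submitters' processing notes and 3.1.0 in the file headers, and the study's methods name a later one, a difference that could not be settled. Neither doublets nor free RNA had been removed as far as the sources used here say. Counts were summed per group and library and given as CPM with exact Poisson 95% intervals, ratios with exact binomial intervals, and shares with Clopper-Pearson intervals. Against a group at 0 UMIs a ratio used a floor of 3 counts, and none was formed where both groups had 3 or fewer. No test was run, since each day had 1 library. A gene was called higher or lower at a 2-fold ratio with at least 100 UMIs over both groups. Doublets were marked with a scrublet-type score, which marked 0.167% of day 10 cells, too few to have worked there, and 1.12% of day 14 cells. Named genes were those of the gene lists plus the 10 highest and 10 lowest mean ratios over both days among genes at least 2-fold apart in the same direction at each. The members of the group and the lists were chosen with earlier results of these data known. Positions come from GENCODE on GRCm38, which held 32235 of 32285 gene identifiers, and promoters from RefSeq. The ratios were tried on simulated counts with Poisson noise and the same gene shares in every cell of a group. That setting has no further spread between cells, so it does not cover ratios that rest on a few cells. The work used Python 3.11.15, numpy 2.4.6, scipy 1.17.1, pandas 2.3.3, and scikit-learn 1.9.0, and figures were drawn with matplotlib 3.10.9. A gene of the stress list is not reported here.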

Additional observations from a re-analysis of the deposited data

Results flagged for a closer look

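Of the genes compared at both days, 5 list genes had log2 ratios of *Mmp13*-high over *Mmp13*-low *Col10a1* cells with opposite signs and intervals that did not include 0, and none of these differences between days was tested, since each day had 1 library. *Col10a1* was 0.35 at day 10 and -0.13 at day 14. *Phex*, an endopeptidase of phosphate balance, was 0.72 and -0.38. *Mmp2*, a gelatinase, was -0.39 and 0.22. The vessel ligands *Adm* and *Apln* were -0.44 and 0.23, and -0.63 and 0.52. The day 7 library, which the comparisons did not use, held 4 *Mmp13*-high *Col10a1* cells, with 43 to 215 *Mmp13* UMIs each.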

How the results depend on the processing

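Of 153 calls of list and named genes, counted for each gene and day, 150 kept their sign under all 16 alternatives. At least 2-fold apart throughout were 125 of the 153. The alternatives at 20 UMIs per gene, without a filter on low counts, and at 1.5-fold leave each ratio as it was. They could therefore not alter these counts. The exceptions in sign were *Bglap*, *Bglap2*, and *Chac1* at day 14. *Bglap* went from 2.09 to -0.79 with the *Mmp13* limit at 5 per 10000 UMIs, to -0.74 with at least 10 UMIs, and to -0.59 after thinning to 5000 UMIs, and *Bglap2* from 2.57 to -1.75, -1.69, and -1.56. A cell with 5 *Mmp13* UMIs of 23279, which held 1897 of 4289 *Bglap* and 1046 of 1625 *Bglap2* UMIs, goes to the *Mmp13*-low group under the first pair of these limits. The share of *Mmp13*-high cells among *Col10a1* cells at day 10 was 63.8% with at least 3 *Mmp13* UMIs, 55.2% with at least 10, 53.8% with *Col10a1* at 20 per 10000, 65.3% at 100, and 53.1% after thinning. At day 14 it was 75.7% with at least 3 UMIs, 59.5% with 10, 65.9% at 5 per 10000, and 57.5% after thinning. Matrix-breakdown genes that were higher numbered 6 after thinning and 16 without a filter on low counts at day 10, and 11 without a filter and 11 at 1.5-fold at day 14. Mineral genes at day 14 numbered 3 at 5 per 10000, 3 with at least 10 UMIs, and 3 after thinning. Vessel-recruiting genes numbered 7 without a filter at day 10 and 2 after thinning at day 14. Over all genes, higher and lower calls at day 10 were 209 and 221 after thinning, 1458 and 646 at 20 UMIs per gene, 2230 and 963 without a filter, and 1568 and 791 at 1.5-fold, and higher calls were 48.6% of the calls after thinning against 60.1% as reported and 59.0% to 69.8% under the other alternatives. At day 14 these calls were 172 and 120, 940 and 396, 1534 and 690, and 1096 and 604. The cause of the other changes was not tested, beyond fewer or more genes being compared. Leaving out the 2 cells with most UMIs of each gene in each group was added after seeing the data. No paired analysis was possible because each day had 1 library and the result comes from no test.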
